A study of Homo sapiens with 64 samples.

Results

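Eph receptors are receptor tyrosine kinases, and ephrins are their ligands on the surface of neighboring cells. The 10 genes described here are the receptors EPHA1, EPHA2, EPHA4, EPHB2, EPHB3 and EPHB4 and the ligands EFNA1, EFNA4, EFNB1 and EFNB2, taken by their Ensembl identifiers from 54127 genes in each of 64 count tables. All 10 were found in every table. A-type ephrins are tethered to the membrane by a lipid anchor and B-type ephrins span it, and ephrins signal back into the cell that carries them when an Eph receptor binds. In the intestinal epithelium, EPHB2 and EPHB3 are targets of Wnt signaling that are high at the crypt base, EFNB1 and EFNB2 are high toward the crypt mouth and surface, and contact between them keeps proliferating and differentiating cells apart.

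RNA was sequenced from spheroids of 6 established colorectal cancer cell lines, which the labels place in pairs in colon cancer subtypes CCS1 (HT55, SW948), CCS2 (RKO, SW48) and CCS3 (DLD1, HCT15), grown without serum and without attachment in the presence of EGF and bFGF. Cells of each line were labeled with CFSE, a dye that is diluted at every division, and sorted on day 6 into label-retaining cells (LRCs, bright for CFSE) and the bulk of cycling cells (non-LRCs), with 4 replicates of each population and 48 sorted samples in all. A further 16 samples were unsorted DLD1 bulk cells, labeled with CFSE or left unlabeled (DMSO), taken on day 1 or day 6 after seeding (day 5 in the sample labels of the later time), with 4 replicates per group. Each line is 1 culture model of 1 tumor, and the replicates are stated to be biological quadruplicates. Whether any of the lines come from the same tumor is not given in the sources used here, so the lines may not be independent tumors.

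Gene counts summed to 12237225 to 20913455 reads per library. The median library had 15019417 reads among LRCs and 15171794 among non-LRCs. Levels below are CPM, counts scaled to a common library size, after TMM normalization over the 64 samples, and errors are SD over 4 replicates. Of 8 epithelial markers, CDH1 (0.999 CPM), KRT19 (1.02 CPM), KRT20 (0.140 CPM) and VIL1 (0.371 CPM) were near 0 in RKO, where EPCAM was at 17.0 CPM and KRT18 at 137 CPM. The summed level of the 8 ranged from 217 to 17600 CPM per library. Of 9 markers of blood, vessel, stroma, liver and red cells, the summed level lay between 0.526 and 23.7 CPM per library, with CD3E at 0 in every line and PTPRC, a leukocyte marker, at 14.8 CPM in SW48.

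Several libraries stood apart from their labels or their group. Over expressed genes, the 16 unsorted libraries labeled DLD1 had a Pearson's r of 0.951 to 0.992 with the mean of sorted HCT15 and of 0.915 to 0.955 with the mean of sorted DLD1. Replicate 4 of unlabeled DLD1 on day 1 had an r of 0.994 with the day 6 unlabeled group and of 0.978 with the other libraries of its own group. On day 1, CFSE-labeled replicates 1 and 2 stood apart from replicates 3 and 4 for several members. Replicates were also compared by the average chi-square per gene between their counts, which sampling noise alone puts near 1. With CFSE on day 1 it was 5.94 between replicates 1 and 2, 4.09 between 3 and 4, and 54.2 to 70.8 across these pairs. The same pairs lay apart with CFSE on day 6 (5.45 and 6.78 within, 17.3 to 35.4 across). So they did in HCT15 LRCs (9.36 and 6.27 within, 21.1 to 30.4 across) and DLD1 LRCs (4.58 and 2.60, 11.6 to 18.6), and in the non-LRCs of both. Tests without a block on replicate number took the 4 replicates of a group as independent. Replicate 2 stood apart from its group in HT55 (26.3 to 52.4 to the other libraries, 4.18 to 17.1 among those) and in SW48 (25.6 to 55.3 against 6.48 to 17.8), in LRCs and non-LRCs alike. In SW948, LRC replicate 1 (17.6 to 32.5 against 6.76 to 14.7) and non-LRC replicate 3 (6.31 to 9.27 against 3.41 to 4.71) stood apart. So did RKO non-LRC replicate 3 (10.1 to 17.8 against 3.12 to 9.87). Replicate 1 of unlabeled DLD1 on day 6 was at 31.5 to 75.6, which overlapped the 7.78 to 32.5 among the other libraries of its group. These are descriptions across genes, which are not independent replicates, and the cause of none of them was tested.

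In GRCh37 the receptor genes are EPHA1 (ENSG00000146904, chr7:143087382-143105949), EPHA2 (ENSG00000142627, chr1:16450832-16482564), EPHA4 (ENSG00000116106, chr2:222282747-222438922), EPHB2 (ENSG00000133216, chr1:23037332-23247993), EPHB3 (ENSG00000182580, chr3:184279573-184300196) and EPHB4 (ENSG00000196411, chr7:100400187-100425145). The ligand genes are EFNA1 (ENSG00000169242, chr1:155100352-155107375), EFNA4 (ENSG00000243364, chr1:155036213-155042029), EFNB1 (ENSG00000090776, chrX:68048864-68062003) and EFNB2 (ENSG00000125266, chr13:107142093-107188010). EFNA1 and EFNA4 lie close together on chromosome 1. Counts were summed over the exons of each gene.

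All 10 promoters were matched in RefSeq tables for GRCh38.p14, each running from 250 bases before the start of the gene to 50 after it. Those of EPHB3 and EFNA1 are printed because their levels followed each other most closely across lines. Capitals mark each CG.

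EPHB3 (chr3:184561535-184561834, + strand): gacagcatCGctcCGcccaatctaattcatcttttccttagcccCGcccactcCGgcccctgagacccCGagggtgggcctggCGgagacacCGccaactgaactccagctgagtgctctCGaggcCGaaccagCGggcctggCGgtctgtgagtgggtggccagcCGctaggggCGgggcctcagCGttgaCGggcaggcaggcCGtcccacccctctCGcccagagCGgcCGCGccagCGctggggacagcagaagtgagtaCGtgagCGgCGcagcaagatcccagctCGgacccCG

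EFNA1 (chr1:155127626-155127925, + strand): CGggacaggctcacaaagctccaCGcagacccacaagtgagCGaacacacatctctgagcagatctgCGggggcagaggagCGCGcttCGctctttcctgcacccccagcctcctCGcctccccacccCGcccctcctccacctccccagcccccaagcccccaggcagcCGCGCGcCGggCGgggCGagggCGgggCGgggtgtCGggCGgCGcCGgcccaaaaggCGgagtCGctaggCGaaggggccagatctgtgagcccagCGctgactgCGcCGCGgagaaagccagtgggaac

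EPHB3 held 26 CG in 300 bases and EFNA1 28, against a median of 14 over 27305 promoters of the same length. At least as many CG were held by 29.8% of all promoters for EPHB3 and by 25.9% for EFNA1. EPHB2 and EFNB2 each held 49, a number reached by 1.62% of promoters, and EPHA4 held 12. The TCF/LEF core CTTTGAA was searched on both strands. So were the variants CTTTGTT and CTTTGAT. At least 1 of them was found in 0 of the 10 member promoters and in 11.7% of all promoters, which says only that these letters are not in these windows. The variant CTTTGTA was not part of the search, and the EFNA4 window holds it, so the 0 does not cover every form of the core.

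The levels of the 10 genes differed between lines for every member. All 10 passed the test over the 6 lines in non-LRCs (edgeR's quasi-likelihood test, adjusted p from 2.88e-23 for EFNB1 to 2.11e-09 for EFNA4), where 98.3% of all genes tested were called. In bulk samples such as these, fewer cells of a type and less RNA per cell cannot be told apart. Order between neighboring lines was tested by pairs of lines, and over the 15 pairs together 71.1% of gene tests were called. Of the 50 steps between neighbors in the orders of the 10 genes, 18 did not differ beyond their spread.

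**Figure D1:**
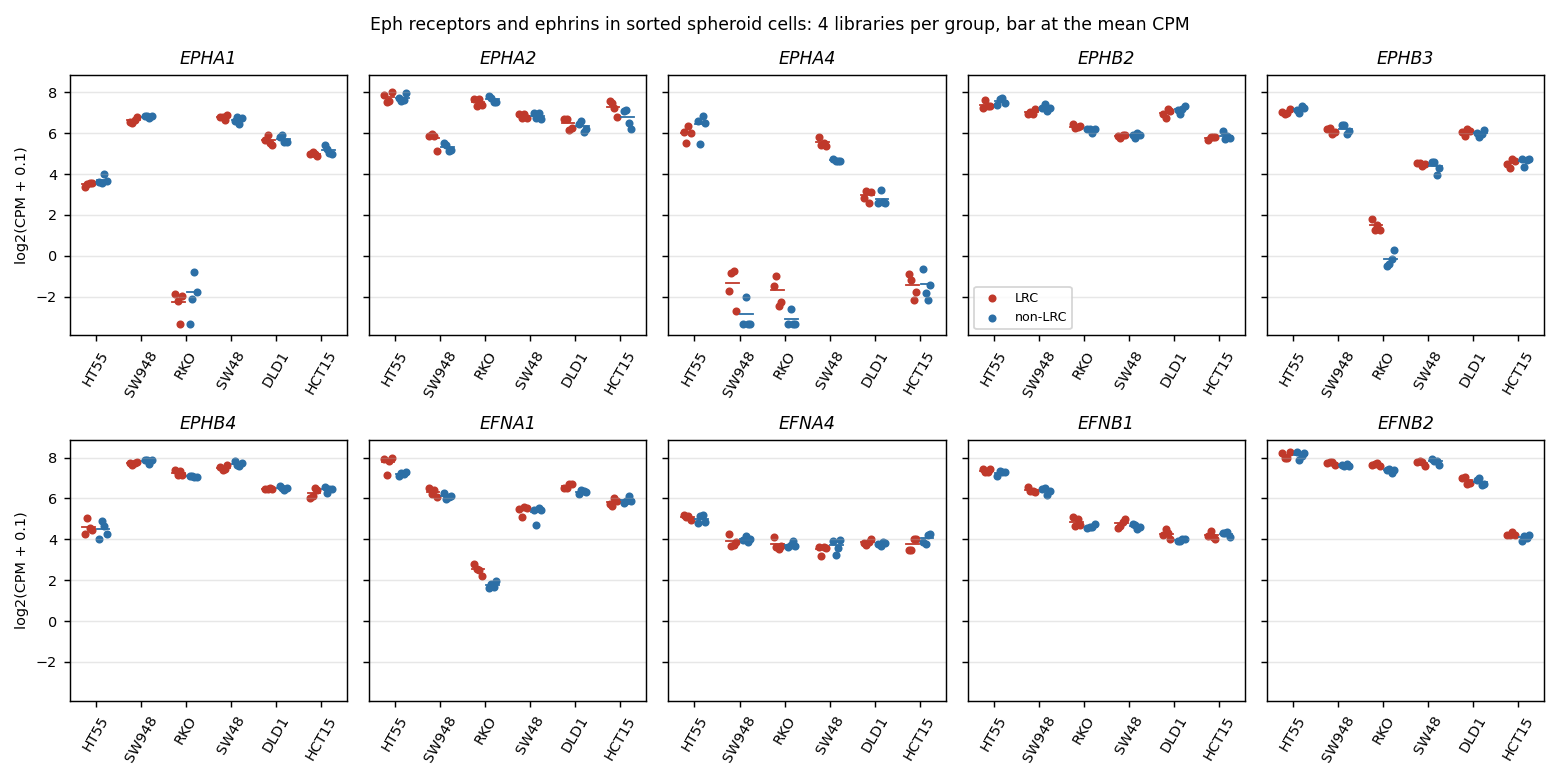
CPM of the 10 members in LRCs (red) and non-LRCs (blue) of the 6 lines on a log2 scale with 0.1 added; each point is 1 of 4 libraries and the bar is the mean. EPHA1, EPHB3 and EFNA1 were low in RKO, EPHA4 was near 0 in SW948, RKO and HCT15, and EFNB2 was low in HCT15, while EFNA4 lay in a narrow range outside HT55.

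EPHA2, a receptor for A-type ephrins that is widely expressed in epithelial tumors, was present in all 6 lines. In non-LRCs it was highest in HT55 (213 ± 24.8 CPM) and RKO (203 ± 20.3 CPM), which did not differ beyond their spread (adjusted p = 0.616 from edgeR). SW48 (116 ± 12.4 CPM) and HCT15 (111 ± 33.8 CPM) followed, also without a difference beyond their spread (adjusted p = 0.673 from edgeR), then DLD1 (81.4 ± 13.7 CPM) and SW948 (39.5 ± 5.18 CPM).

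EPHA1, another receptor for A-type ephrins, was highest in SW948 (112 ± 4.53 CPM) and SW48 (100 ± 9.36 CPM), which did not differ beyond their spread (adjusted p = 0.222 from edgeR). It was lower in DLD1 (52.7 ± 6.51 CPM), HCT15 (36.1 ± 5.05 CPM) and HT55 (13.1 ± 1.83 CPM). In RKO non-LRCs the 4 libraries held 0, 0.130, 0.470 and 0.188 CPM, at or near what 3 counts give in an RKO library (0.158 to 0.253 CPM).

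EPHA4, which binds both classes of ephrin, was present in 3 lines. The 4 HT55 non-LRC libraries held 97.5, 44.7, 115 and 91.2 CPM, those of SW48 26.6, 24.8, 25.2 and 25.0 CPM, and those of DLD1 5.97, 9.27, 6.02 and 5.94 CPM. These ranges did not overlap. In HCT15 (0.277 ± 0.179 CPM), SW948 (0.0376 ± 0.0751 CPM) and RKO (0.0162 ± 0.0324 CPM) the mean was near or below the level of 3 counts.

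EPHB2 was present in every line, highest in HT55 (188 ± 21.0 CPM), then SW948 (153 ± 14.2 CPM) and DLD1 (143 ± 16.6 CPM), which did not differ beyond their spread (adjusted p = 0.397 from edgeR). RKO (71.4 ± 4.52 CPM), SW48 (59.5 ± 4.37 CPM) and HCT15 (58 ± 6.74 CPM) were lower. EPHB3, its close relative, followed the same order at the top, with HT55 at 145 ± 13.8 CPM, SW948 at 74.8 ± 10.8 CPM and DLD1 at 63.7 ± 5.72 CPM. It was at 24.9 ± 3.16 CPM in HCT15 and 20.7 ± 4.02 CPM in SW48. In RKO the 4 non-LRC libraries held 0.601, 0.648, 0.784 and 1.13 CPM of EPHB3. RKO thus had more EPHB2 mRNA than SW48 (adjusted p = 0.0221 from edgeR) and the least EPHB3 mRNA of the 6 lines.

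EPHB4, the receptor of EFNB2 in vessel formation, had another order. It was highest in SW948 (229 ± 14 CPM) and SW48 (207 ± 16.8 CPM), which did not differ beyond their spread (adjusted p = 0.247 from edgeR), followed by RKO (135 ± 2.90 CPM), DLD1 (90.7 ± 4.84 CPM) and HCT15 (87.3 ± 7.46 CPM). HT55, with the highest means of EPHA2, EPHA4, EPHB2 and EPHB3, had the least EPHB4 (22.5 ± 6.18 CPM). The gene shares exon positions with SLC12A9 on the opposite strand, as EPHA1 does with ZYX, and whether counting used strand is not given in the sources used here, so reads of these genes may be mixed.

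Among the ligands, EFNA1 was highest in HT55 (147 ± 7.23 CPM), with DLD1 (80.4 ± 5.0 CPM), SW948 (68.9 ± 6.54 CPM) and HCT15 (60.7 ± 5.85 CPM) next and SW48 at 39.8 ± 9.49 CPM. In RKO its 4 non-LRC libraries held 3.01, 3.43, 3.06 and 3.76 CPM. EFNA4 was at 32.2 ± 4.37 CPM in HT55 and between 13.0 and 16.4 CPM on average in the other 5 lines, none of whose neighbors in order differed beyond their spread. Its exons are shared with the readthrough transcript EFNA4-EFNA3, so its counts are uncertain.

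EFNB1 was highest in HT55 (153 ± 11.1 CPM) and SW948 (84.4 ± 8.28 CPM), both CCS1, and lay between 15.5 and 25.1 CPM on average in the other lines, with SW48 and RKO not told apart (adjusted p = 0.749 from edgeR). EFNB2 was highest in HT55 (280 ± 35.1 CPM) and was above 100 CPM on average in 5 lines. The 4 HCT15 non-LRC libraries held 15.1, 17.9, 16.6 and 18.3 CPM and the 4 of DLD1 120, 127, 99.7 and 104 CPM. These lines, of the same subtype, differed in EFNB2 by 2.75 on the log2 scale (SE 0.10, adjusted p = 5.99e-17 from edgeR).

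Compared per length, as CPM per kb of merged exon, EFNB2 or EFNA1 had the highest mean of the 10 members in 5 lines. RKO was the exception, where EPHA2 led (49.1 CPM per kb), followed by EFNB2 (33.3 CPM per kb) and EPHB4 (21.0 CPM per kb). In HT55 EFNA1 (68.0 CPM per kb), EFNB2 (55.9 CPM per kb), EPHA2 (51.5 CPM per kb) and EFNB1 (46.4 CPM per kb) led. In SW948 EFNB2 (39.5 CPM per kb) and EPHB4 (35.6 CPM per kb) led, and in SW48 the same genes did (45.0 and 32.1 CPM per kb). In DLD1 EFNA1 led at 37.2 CPM per kb. In HCT15 EFNA1 (28.0 ± 2.70 CPM per kb) and EPHA2 (26.7 ± 8.16 CPM per kb) lay within each other's spread. The merged exons of EPHB2 span 12516 bp, more than those of any other member, which lowers its value on this scale.

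Whether expression differed between LRCs and non-LRCs was first tested across the 6 lines with line as a covariate. Of the 10 members, EFNA1 and EFNB1 were called, both higher in LRCs, a share of 20% against 22.9% of all genes tested. The median log2 fold change of the members was 0.082, beside 0.015 over all genes tested. EFNA1 had a log2 fold change of 0.27 (SE 0.068, adjusted p = 0.00248 from edgeR) and was higher in LRCs in 18 of 24 same-numbered pairs. For EFNB1 the change was 0.12 (SE 0.043, adjusted p = 0.0321 from edgeR), with 13 of 24 pairs higher. EFNB2 was the third member called by DESeq2 (adjusted p = 0.0322). EFNB1 lost its call without replicate number 1 (adjusted p = 0.144), 3 (adjusted p = 0.168) or 4 (adjusted p = 0.0617) in edgeR's test, and without line HT55, RKO, SW48 or DLD1 (adjusted p from 0.0528 to 0.206). Same-numbered samples deviated together in 4 of the 6 lines, and a fit blocked on replicate number called 3 members against 25.5% of all genes, EFNA1 (adjusted p = 0.00219), EFNB2 (adjusted p = 0.0184) and EPHA2 (adjusted p = 0.0292 from edgeR), and EFNB1 was not (adjusted p = 0.0537).

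In edgeR's test EFNB2 was at 0.10 (SE 0.038, adjusted p = 0.0513 from edgeR) with 19 of 24 pairs higher in LRCs, and EPHA2 at 0.16 (SE 0.075, adjusted p = 0.117 from edgeR) with 15 of 24. The receptors EPHA1 (-0.10, 18 of 24 pairs lower) and EPHB2 (-0.080, 16 of 24 pairs lower) had negative changes that did not pass (adjusted p = 0.176 and 0.174 from edgeR). EPHA4 (0.27), EPHB3 (0.064), EPHB4 (-0.028) and EFNA4 (-0.058) did not pass either. Single lines decided some of these values. EPHA4 passed at 0.64 without HT55 (adjusted p = 0.00258 from edgeR) and was at -0.049 without SW48 (adjusted p = 0.881). EPHA1 passed at -0.17 without SW48 (adjusted p = 0.0365) and EPHB2 at -0.13 without RKO (adjusted p = 0.0395 from edgeR), and EPHB3 was at -0.026 without RKO (adjusted p = 0.808). The sign of these averages hid differences between lines, which were tested as an interaction of line and population. EPHB3 (adjusted p = 0.000109), EPHA4 (adjusted p = 0.00282) and EFNA1 (adjusted p = 0.0393) passed this edgeR test without a block, 3 of 10 members against 14.3% of all genes tested. With the replicate number as a block these and 4 more passed, 7 of 10 against 33.6%. The 4 were EPHA2 (adjusted p = 0.000169), EFNB2 (adjusted p = 0.0148), EPHB2 (adjusted p = 0.0161) and EPHB4 (adjusted p = 0.0196 from edgeR). Without the block, EPHA4 lost this call without replicate number 1 (adjusted p = 0.130) or 3 (adjusted p = 0.0578), and EFNA1 without number 1, 3 or 4 (adjusted p = 0.391, 0.303 and 0.166 from edgeR).

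**Figure D2:**
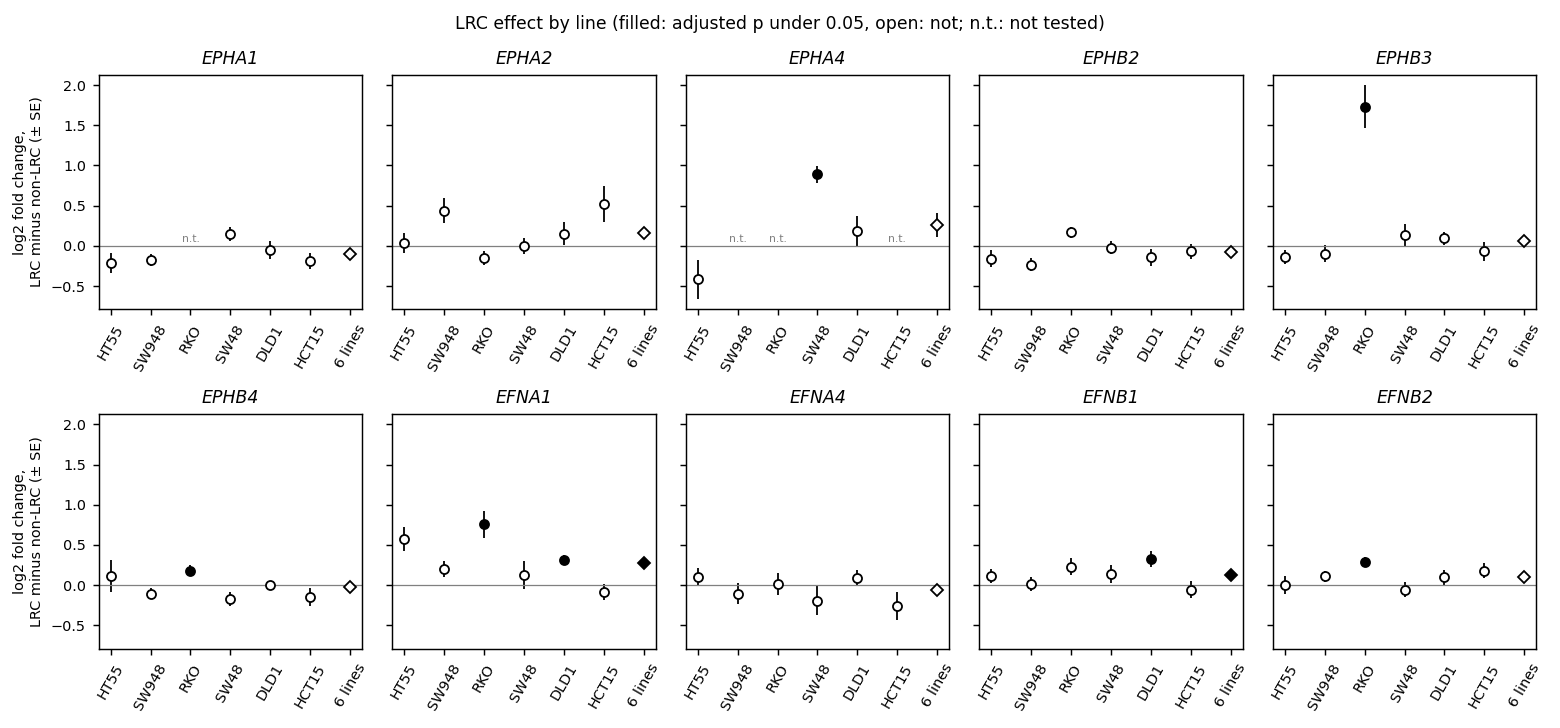
Log2 fold change of LRCs against non-LRCs (± SE) for the 10 members in each line (circles) and across the 6 lines (diamonds); filled symbols had an adjusted p under 0.05 and n.t. marks genes with too few counts to be tested. EPHB3 changed by 1.73 in RKO and EPHA4 by 0.89 in SW48, the largest of the called changes.

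RKO held the most calls. Of 8 members tested there, EPHB3, EFNA1, EFNB2 and EPHB4 were higher in LRCs and none was lower, 4 of 8 against 41.5% of all genes in this line. EPHB3 held 3.38, 2.34, 2.79 and 2.32 CPM in the 4 LRC libraries, against 0.601 to 1.13 CPM in non-LRCs, without overlap. Its log2 fold change was 1.73 (SE 0.27, adjusted p = 0.000118 from edgeR), 3.32-fold, from a level at which RKO still stood below the other lines. EFNA1 held 6.84, 5.70, 5.57 and 4.58 CPM in LRCs, all above the non-LRC libraries, a log2 fold change of 0.76 (SE 0.17, adjusted p = 0.00214 from edgeR).

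EFNB2 in RKO held 202, 205, 212 and 196 CPM in LRCs and 169, 176, 154 and 167 CPM in non-LRCs, again without overlap, and rose by 0.29 on the log2 scale (SE 0.063, adjusted p = 0.0018 from edgeR). EPHB4 was higher by 0.18 (SE 0.070, adjusted p = 0.0478 from edgeR), but lost its call when any of 6 of the 8 libraries was left out (adjusted p from 0.062 without non-LRC replicate 1 to 0.125 without LRC replicate 1; the others were LRC replicate 3 and non-LRC replicates 2, 3 and 4). EPHB2 was at 0.17 (adjusted p = 0.0694) and EFNB1 at 0.23 (adjusted p = 0.0862) in edgeR's test, EPHA2 at -0.15 and EFNA4 at 0.014. The populations did not overlap in EPHB4 (141 to 165 CPM in LRCs, 131 to 139 CPM in non-LRCs). Nor did they in EPHB2 (75.9 to 86.4 CPM in LRCs, 64.7 to 74.4 CPM in non-LRCs). EFNB1 passed without LRC replicate 2 (adjusted p = 0.040) or 4 (adjusted p = 0.0492).

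Low expression went with the direction of calls in this line. Among 2383 tested genes with a mean of 0.5 to 5 CPM in RKO non-LRCs, the range that holds EPHB3 and EFNA1, 26.0% were called higher in LRCs and 2.31% lower, with a median log2 fold change of 0.29. Among the 10217 genes at 5 CPM or more, 18.4% were higher and 25.7% lower. The bins were set by the level in non-LRCs, which is also the base of the fold change. A gene of low expression could also pass the filter through its LRC libraries alone. Both lean the lower bin toward higher in LRCs, so its shares are partly set by how it was made. The part of low expression in the changes of EPHB3 and EFNA1 was not tested. Reads of EPHA4 were also scarce in RKO, with 0.253, 0.399, 0.0819 and 0.105 CPM in LRCs and 0 to 0.0648 CPM in non-LRCs. These were 3, 7, 1 and 2 counts in LRCs and 0, 1, 0 and 0 in non-LRCs, too few to enter the test. LRC replicate 3 and non-LRC replicate 2 each held 1 count, so the counts overlapped. When no gene was left out for low counts EPHA4 was called higher in LRCs (adjusted p = 0.0481 from edgeR), as were 22.1% of all genes in either direction. EPHA1, which was at 100 CPM or more in SW948 and SW48, was at 0.169, 0.114, 0 and 0.158 CPM in RKO LRCs, no higher than in non-LRCs, and EPHB1, at 53.7 CPM in HT55 non-LRCs, had 0 counts in all 8 RKO libraries, which allows up to 3 counts in each.

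In SW48, EPHA4 was the 1 member of 10 called, where 0.796% of all genes were. The 4 LRC libraries held 55.9, 43.2, 46.6 and 41.1 CPM and the 4 non-LRC libraries 26.6, 24.8, 25.2 and 25.0 CPM. The populations did not overlap, and the log2 fold change of 0.89 (SE 0.11, adjusted p = 0.00824 from edgeR) was a 1.85-fold difference. It passed whichever single library was left out (adjusted p up to 0.0428). In this line same-numbered samples deviated together, and with the replicate number as a block EPHA4 stayed the 1 member called (adjusted p = 0.000237) among 9.69% of genes.

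In HT55 the change of EPHA4 had the opposite sign. LRC libraries held 66.6, 46.4, 81.1 and 65.0 CPM and non-LRC libraries 97.5, 44.7, 115 and 91.2 CPM, so 3 of 4 pairs were lower in LRCs and the groups overlapped. The log2 fold change of -0.42 (SE 0.24) did not pass (adjusted p = 0.738 from edgeR), but did when non-LRC replicate 2 was left out (-0.63, adjusted p = 0.0355).

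In DLD1, EFNA1 and EFNB1 were called, both higher in LRCs, 2 of 10 members against 14.6% of all genes. EFNA1 held 92.7, 92.7, 106 and 103 CPM in LRCs and 74.6, 86.6, 81.4 and 79.1 CPM in non-LRCs, without overlap, a log2 fold change of 0.31 (SE 0.066, adjusted p = 0.0113 from edgeR). It did not pass when all 48 sorted samples shared 1 estimate of the spread (0.30, adjusted p = 0.223). EFNB1 held 18.3, 22.3, 19.7 and 16 CPM in LRCs and 14.9, 15.1, 15.8 and 16.1 CPM in non-LRCs, where LRC replicate 4 overlapped the other group. Its change of 0.33 (SE 0.099, adjusted p = 0.0479 from edgeR) did not pass when any 1 of 7 of the 8 libraries, all but LRC replicate 4, was left out (adjusted p from 0.066 to 0.123).

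In DLD1 too same-numbered samples deviated together, as in EPHA2, which held 104, 103, 71.9 and 77.0 CPM in LRCs and 88.3, 96.9, 66.6 and 73.6 CPM in non-LRCs. A fit blocked on replicate number called 4 members and 33.8% of genes. EPHA2 was then higher in LRCs by 0.15 (adjusted p = 0.0116) and EPHB2 lower, at -0.14 (adjusted p = 0.0163 from edgeR), beside EFNA1 (adjusted p = 2.68e-05) and EFNB1 (adjusted p = 0.00528).

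HCT15 had 0 of 9 members called by edgeR where 0.977% of all genes were, 1 with an unadjusted p under 0.05 and 0 by DESeq2. Blocking on replicate number, since same-numbered samples deviated together here too, called 21.3% of genes and 2 members. EPHA2 held 191, 178, 148 and 110 CPM in LRCs and 135, 143, 91.7 and 73.0 CPM in non-LRCs. The groups overlapped but each of the 4 pairs was higher in LRCs. Its log2 fold change was 0.52 without the block (adjusted p = 0.262) and with it 0.54 (SE 0.067, adjusted p = 3.67e-05 from edgeR). EFNA4 was lower in LRCs at -0.27 in that fit (adjusted p = 0.0485 from edgeR). EFNB2 held 18.4 to 20.2 CPM in LRCs and 15.1 to 18.3 CPM in non-LRCs, without overlap, and was not called in either fit. The share of all genes whose LRC and non-LRC ranges lay apart is not given here for any line. A lack of overlap therefore describes the libraries of a member only.

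No member was called by edgeR in HT55 or SW948, where 0% of all genes were called in each (1005 and 2350 genes had an unadjusted p under 0.05, and DESeq2 called 37 and 244 genes and 0 members). The block left HT55 at 0% of genes and 0 members. EPHA1 in HT55 was lower in LRCs without overlap, at 10.1 to 11.8 CPM against 11.9 to 15.7 CPM in non-LRCs. It was not called (-0.21, adjusted p = 0.734 from edgeR). In HT55, EFNA1 held 246, 144, 232 and 250 CPM in LRCs and 138, 150, 146 and 155 CPM in non-LRCs. LRC replicate 2 lay within the range of the non-LRCs and the other LRC libraries far above it. The log2 fold change of 0.57 (SE 0.15, adjusted p = 0.507 from edgeR) became 0.73 (adjusted p = 0.00557) without that library. In SW948, EPHA2 held 57.6, 63.2, 58.3 and 34.5 CPM in LRCs and 45.3, 42.3, 34.5 and 35.8 CPM in non-LRCs. Its change of 0.44 did not pass (adjusted p = 0.207) and passed at 0.61 (adjusted p = 0.00128 from edgeR) without LRC replicate 4, as did EPHA1 (-0.24, adjusted p = 0.0424) and EPHB2 (-0.28, adjusted p = 0.0329). The shares of all genes called without these single libraries are not given here.

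**Figure D3:**
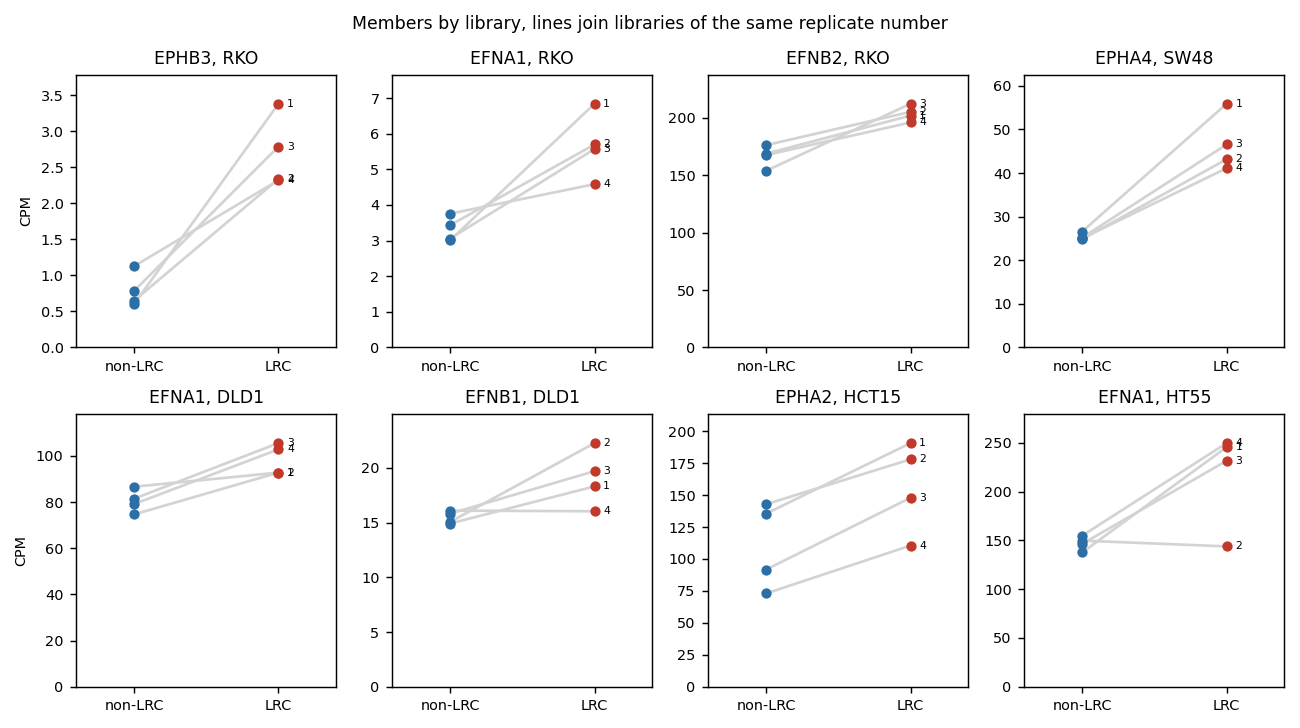
CPM by library of 8 member and line combinations, with non-LRCs (blue) and LRCs (red) of the same replicate number joined by a line and numbered at the right. EPHB3, EFNA1 and EFNB2 in RKO and EPHA4 in SW48 did not overlap between populations, EPHA2 in HCT15 was higher in LRCs in all 4 pairs, and EFNA1 in HT55 was higher in all pairs but number 2.

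The other 12 genes of the family were examined in the same way. Of these, 7 had enough counts to be tested across the lines and 0 were called by edgeR in LRCs against non-LRCs across lines, where 22.9% of all genes were. EFNA5 had an unadjusted p under 0.05 (0.18, adjusted p = 0.0566 from edgeR), and it was the 1 gene of the 7 called with the replicate block (adjusted p = 0.0297 from edgeR) and by DESeq2. EPHA10 and EFNA3 were at 1 CPM or more on average in all 6 lines, with maxima of 34.2 CPM in SW48 and 46.5 CPM in HT55 (non-LRCs). EPHB6, a receptor without kinase activity, was at 420 CPM in HT55 non-LRCs, between 41.3 and 140 CPM over the 8 sorted DLD1 libraries, and at 12.4, 21.5, 11.4 and 12.4 CPM in SW48 non-LRCs. EPHB1 reached 1 CPM in HT55 (53.7 CPM) and SW948, and EFNB3 in SW948 (3.36 CPM) and SW48. EFNA5 was at 1 CPM or more in 5 lines, and EFNA2 reached 2.22 CPM in HT55. EPHA3, EPHA5, EPHA6, EPHA7 and EPHA8 stayed below 0.2 CPM on average in every line, and EPHA5 had 0 counts in the 48 sorted libraries, which allows up to 3 counts in each (0.144 to 0.263 CPM). In RKO, EPHA10 (0.75, adjusted p = 0.0361) and EFNA5 (0.38, adjusted p = 0.0138 from edgeR) were higher in LRCs. These were 2 of 3 tested there, against 41.5% of all genes. EPHA10 overlapped between populations, at 1.47 to 2.53 CPM in LRCs and 0.751 to 1.49 CPM in non-LRCs. With the replicate block EPHA10 was not called (adjusted p = 0.0515) and EFNA5 was (adjusted p = 0.0313 from edgeR).

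Of 40 genes listed as signaling partners of Eph receptors and ephrins, 39 were tested across lines and 10 were called, 6 higher and 4 lower in LRCs, 25.6% beside the 22.9% of all genes, with a median log2 fold change of 0.020. Those with the smallest p were ACP1, a low molecular weight phosphatase (-0.16, adjusted p = 0.00135), GRB7, an adaptor (0.22, adjusted p = 0.00638), and ABL2, a kinase of the cytoskeleton (0.24, adjusted p = 0.0112 from edgeR). Of 18 Wnt and crypt target genes, 5 were called, 4 higher and 1 lower, with DKK1 at 1.34, SMOC2 at 0.96 and MYC at -0.24 having the smallest p (adjusted p = 0.00605, 0.0131 and 0.008 from edgeR) and a median of -0.055. Of 10 differentiation markers 3 were called, CEACAM5 (0.91) and SLC26A3 (0.83) higher and VIL1 (-0.30) lower (adjusted p = 0.000332, 0.017 and 0.0241 from edgeR). Among single lines, DKK1 had enough counts for a test in HCT15 only, and was not called (adjusted p = 0.0745 from edgeR). SMOC2 was tested in HT55, SW948 and HCT15 and SLC26A3 in HT55 and SW948. Neither was called in any of these (adjusted p from 0.133 to 0.987 from edgeR), though HT55 and SW948 had 0% of genes called. Of 12 proliferation genes 6 were called, all lower in LRCs, with a median of -0.25 across lines, -0.61 in RKO, -0.55 in DLD1 and -0.46 in SW48. This list had a median of -0.022 in SW948, 0.047 in HT55 and 0.18 in HCT15. Its part in the changes of the members was not tested.

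Likeness between genes was described by Pearson's r of log2 CPM over the 12 group means of the sorted cells, 6 lines by 2 populations that share libraries and line identity, so that r mostly reflects differences between lines. Among the members, EPHB3 and EFNA1 were the most alike (r = 0.980), followed by EFNA4 and EFNB1 (0.802), EPHA1 and EFNA1 (0.745) and EPHA1 and EPHB3 (0.742). RKO had the least EPHA1, EFNA1 and EPHB3 in non-LRCs (0.197, 3.31 and 0.790 CPM). Among the other lines, HT55 had the least EPHA1 (13.1 CPM) and the most EFNA1 (147 CPM) and EPHB3 (145 CPM). SW48, with 100 CPM of EPHA1, had the least EFNA1 (39.8 CPM) and EPHB3 (20.7 CPM) of them. The r of EPHA1 with these genes without RKO is not given here. EPHB2 and EPHB3 had an r of 0.642. The most opposed were EPHB4 and EFNA4 (-0.856) and EPHA1 and EPHA2 (-0.659). Over all genes tested across lines, EPHB3 was close to PIK3C2B (0.992) and JAG1 (0.990), and EFNA1 was closest to PLLP (0.991), NEBL (0.989) and MYO1D (0.987). EPHB2 was closest to ARFGEF2 (0.971), ST3GAL4 (0.969) and ISX (0.956), and EFNB1 to CD8B (0.983), ANPEP (0.983) and MUC3A (0.983). EPHA1 was closest to SH3RF2 (0.992), AP1S3 (0.985) and WDR72 (0.978), EPHA2 to FBXO28 (0.968), PLK3 (0.954) and ZNF830 (0.952), and EPHA4 to DYNLT3 (0.982), ECE1 (0.974) and TSPAN2 (0.968). EPHB4 was closest to C7orf31 (0.981), IQCH (0.979) and STMN3 (0.974), EFNA4 to SPAG7 (0.979), ZNF772 (0.979) and CYP2W1 (0.978), and EFNB2 to RPS19 (0.979), RPS16 (0.970) and MAML3 (0.957).

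**Figure D4:**
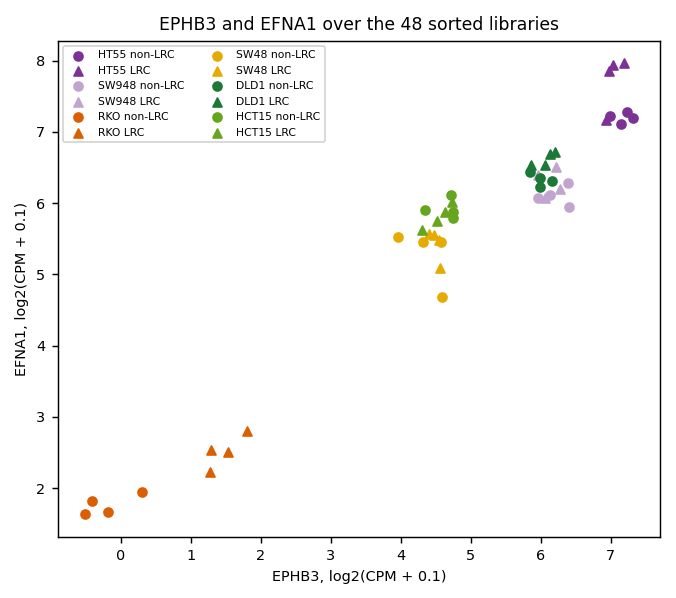
EPHB3 against EFNA1 in each of the 48 sorted libraries, both as log2 of CPM with 0.1 added; color marks the line, circles non-LRCs and triangles LRCs. RKO lies at the lower left and HT55 at the upper right, SW48 lies near HCT15 and SW948 near DLD1 between them, and within RKO the 4 LRC libraries lie above the 4 non-LRC libraries on both axes.

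The unsorted DLD1 controls were included to measure the effect of the dye and of time in culture. Their member levels lay apart from those of sorted DLD1. For 5 of 10 members the range of the 16 unsorted libraries did not overlap that of the 8 sorted DLD1 libraries, against 18.5% of all genes, and for 0 of 10 was it apart from that of the 8 sorted HCT15 libraries, against 1.26% of all genes. EFNB2 was at 10.2 to 70.2 CPM (median 16.4) unsorted, 99.7 to 133 CPM in sorted DLD1 and 15.1 to 20.2 CPM in sorted HCT15. EPHA4 was at 0.0484 to 0.379 CPM unsorted and 5.90 to 9.27 CPM in sorted DLD1. EPHB2 was at 13.6 to 61.8 CPM and 106 to 162 CPM, EPHB3 at 15.3 to 33.1 CPM and 57.1 to 73.3 CPM, and EPHA1 at 26.0 to 41.9 CPM and 42.6 to 60.4 CPM, in that order. The results of these controls are therefore given for the libraries labeled DLD1, and what they say of sorted DLD1 cells was not tested.

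EPHA2 fell with time in these libraries. On day 1 the 4 CFSE-labeled libraries held 350, 364, 194 and 188 CPM and on day 6 163, 150, 118 and 110 CPM, without overlap, a log2 fold change of -1.10 (SE 0.25, adjusted p = 0.00327 from edgeR). In unlabeled cells the libraries held 160, 166, 124 and 82.3 CPM on day 1 and 63.4, 91.5, 88.4 and 93.7 CPM on day 6, where replicate 4 of day 1 lay within the range of day 6. The change of -0.70 (SE 0.25, adjusted p = 0.0495 from edgeR) grew to -0.96 (adjusted p = 0.00346) without that library, and did not pass without day 1 replicate 1, 2 or 3 (adjusted p = 0.149, 0.151 and 0.0898) or day 6 replicate 1, 2 or 3 (adjusted p = 0.124, 0.0784 and 0.0809).

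EFNA4 rose with time under both treatments, by 0.69 with CFSE (SE 0.14, adjusted p = 0.00152) and by 0.67 without (SE 0.14, adjusted p = 0.00734 from edgeR). Its CFSE libraries held 8.93, 9.36, 8.85 and 10.3 CPM on day 1 and 14.6, 14.8, 17.0 and 17.2 CPM on day 6. The unlabeled ones held 10.4, 13.5, 8.83 and 13.6 CPM on day 1 and 20.4, 18.9, 17.5 and 19.0 CPM on day 6. The days did not overlap in either treatment. EFNA3, joined to EFNA4 in the readthrough transcript, was also called higher on day 6 under both treatments. It was the 1 gene called of 5 tested among the other family genes, against 25.5% of all genes without CFSE and 39.3% with it. In unlabeled cells EFNA3 rose by 1.48 (SE 0.34, adjusted p = 0.00914 from edgeR). How far reads of the readthrough transcript enter the change of EFNA4 was not tested.

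EPHB2 rose by 0.85 with time in CFSE-labeled cells (SE 0.23, adjusted p = 0.00963 from edgeR), from 13.6, 16.4, 32.5 and 29.6 CPM to 39.3, 38.8, 46.8 and 48.8 CPM, and did not pass without day 1 replicate 2 (0.64, adjusted p = 0.0558). In unlabeled cells its change of 0.39 did not pass (adjusted p = 0.212 from edgeR). EFNA1 rose with time in unlabeled cells, from 21.5, 26.1, 23.9 and 55.1 CPM to 81.6, 56, 53.3 and 62.1 CPM, a log2 fold change of 0.96 (SE 0.25, adjusted p = 0.0146 from edgeR). It was 1.29 (adjusted p = 9.28e-05) without day 1 replicate 4, and did not pass without day 1 replicate 1, 2 or 3 or day 6 replicate 1 (adjusted p from 0.0528 to 0.0599). In CFSE-labeled cells EFNA1 changed by 0.20 (adjusted p = 0.538 from edgeR).

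In all, 3 of 9 members tested were called with time in unlabeled cells, 2 higher and 1 lower, against 25.5% of all genes, and 3 of 9 in CFSE-labeled cells against 39.3%. Both day contrasts share no library with each other, but each shares its libraries with the dye contrasts. The share of reads outside genes was also higher on day 1 than on day 6, without overlap within either treatment. With CFSE its lowest value on day 1 was 12.1% (replicate 2) and its highest on day 6 was 7.31% (replicate 3). In unlabeled cells these were 8.96% (replicate 4) and 8.35% (replicate 4). The part of this share in the changes with time was not tested.

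The dye was compared on each day. On day 1, 3 of 9 members were called against 21.8% of all genes. EPHA2 was higher with CFSE by 1.08 (SE 0.25, adjusted p = 0.00827 from edgeR), with no overlap between the groups. EFNB2 was higher by 1.58 (SE 0.48, adjusted p = 0.0261 from edgeR), but its CFSE libraries held 70.2, 65.9, 10.7 and 12.2 CPM and the unlabeled ones 14.3, 16.6, 10.2 and 13.9 CPM, so replicates 1 and 2 alone were above the unlabeled range. It did not pass without CFSE replicate 1 or 2 (adjusted p = 0.123 and 0.108) or unlabeled replicate 3 or 4 (adjusted p = 0.0688 and 0.0556). EPHB2 was lower by 0.71 on the log2 scale (-0.71, SE 0.23, adjusted p = 0.0393 from edgeR) and did not pass without CFSE replicate 1 or 2 (adjusted p = 0.133 and 0.143) or unlabeled replicate 2 or 4 (adjusted p = 0.0646 and 0.117). Without unlabeled replicate 4, which resembled day 6, EPHA2 alone was called (0.85, adjusted p = 0.0211).

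On day 6, the time of the sort, 1 of 9 members was called against 5.13% of all genes. EFNA1 was lower with CFSE, at 25.4, 24.9, 42.1 and 36.9 CPM against 81.6, 56, 53.3 and 62.1 CPM in unlabeled cells, without overlap, a log2 fold change of -0.96 (SE 0.25, adjusted p = 0.0357 from edgeR). It lost its call when CFSE replicate 1 or 2 (adjusted p = 0.144 and 0.143) or unlabeled replicate 1, 3 or 4 (adjusted p = 0.0974, 0.0644 and 0.0723) was left out. EPHA2 was at 0.68 (adjusted p = 0.110) and EPHB4 at -0.26 (adjusted p = 0.101 from edgeR). Proliferation genes moved with this contrast, 11 of 12 being higher in CFSE-labeled cells with a median of 0.77, and their part in the change of EFNA1 was not tested.

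Whether the dye effect differed between days was tested as an interaction, for which 0 of 9 members were called by edgeR against 0.999% of all genes, with 2 at an unadjusted p under 0.05 and 0 called by DESeq2. EFNA1 was at -0.76 (adjusted p = 0.282) with all libraries and passed at -1.10 (adjusted p = 0.0165 from edgeR) without replicate 4 of unlabeled cells on day 1.

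**Figure D5:**
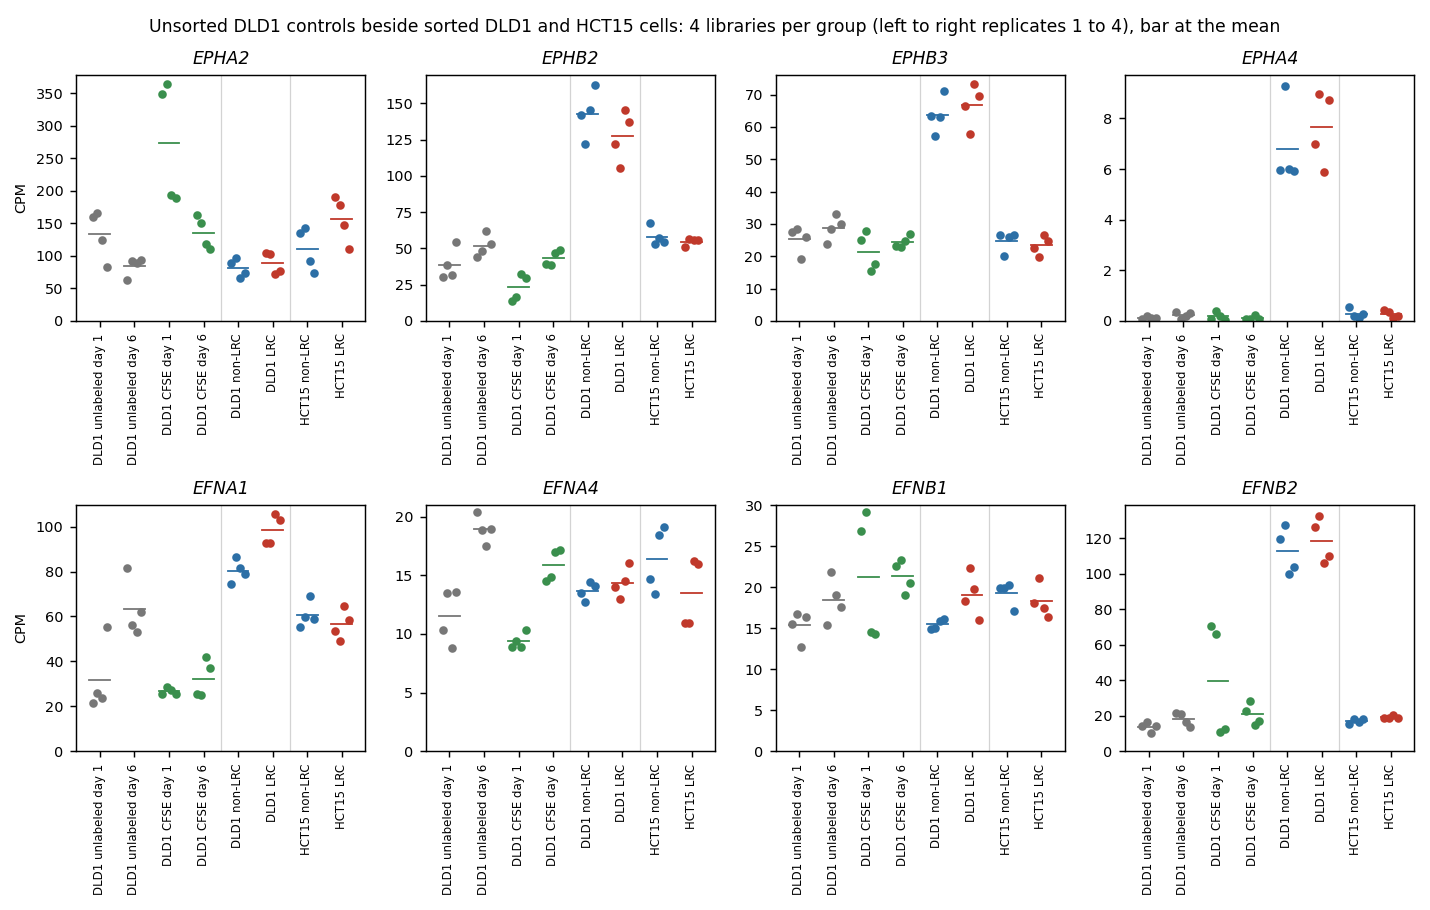
CPM of 8 members in the unsorted DLD1 libraries, unlabeled (gray) or CFSE-labeled (green) on day 1 and day 6, beside sorted DLD1 and HCT15 non-LRCs (blue) and LRCs (red); each point is 1 of 4 libraries, in order of replicate number, and the bar is the mean. EPHB2, EPHB3, EPHA4 and EFNB2 of the unsorted libraries lie near sorted HCT15 and below sorted DLD1, and EFNB2 on day 1 with CFSE splits into 2 high and 2 low libraries.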

How the data were processed

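Whole-number read counts per gene, not normalized, were deposited by the authors for each of the 64 samples. Per the labels, reads were aligned to hg19 and TopHat, HTSeq and DESeq were used (versions and gene annotation are not given in the sources used here). Libraries were TruSeq, sequenced as 50-bp single-end reads. Summary rows of reads outside genes (5.19% to 14.8%) were left out. Names and positions (GRCh37) came from GENCODE.

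Counts were analyzed in R 4.3.3 with edgeR 4.0.16. A gene entered a fit when 4 or more of its samples had 10 or more counts. Libraries were scaled by TMM and genes tested two-sided by the quasi-likelihood test, with Benjamini-Hochberg adjustment over all genes and a threshold of 0.05. Log2 CPM used a prior count of 2. SE was the fold change divided by the root of F. Among 96 pairs of replicates the closest had an average chi-square of 2.19 per gene, where sampling noise gives 1, so all were kept. Same-numbered LRC and non-LRC samples deviated together (every r over 0.1) in HT55, SW48, DLD1 and HCT15, where a replicate block is given, but not in SW948, RKO or the controls as a whole. Alternatives were DESeq2 1.42.0, other scalings and filters, the block, other samples in the fit, and each library or line left out. The tests were checked on simulated counts, drawn independently with the same spread for every gene. That check does not cover replicates that deviate together or libraries that stand apart. All 10 members were examined in each comparison where they had enough counts, but not all are named in each. Genes of listed groups were named by smallest p. The members and lists were chosen with earlier results of these data known. One result on likeness between genes is not reported here.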

Additional observations from a re-analysis of the deposited data

Results flagged for a closer look

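Across 148 groups of 4 libraries with a mean of at least 10 counts, the highest or lowest library lay far from the other 3 in 12, by Dixon's criterion. Chance flags about 1 group in 20. EFNA1 in replicate 4 of unlabeled DLD1 on day 1 was at 55.1 CPM, where the others held 21.5 to 26.1 CPM. EPHA4 in DLD1 non-LRC replicate 2 was at 9.27 CPM against 5.94 to 6.02 CPM, EFNA1 in SW48 non-LRC replicate 2 at 25.6 CPM against 43.9 to 45.8 CPM, and EFNB2 in HCT15 LRC replicate 3 at 20.2 CPM against 18.4 to 18.7 CPM.

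In the same sense, SW948 non-LRC replicate 3 was apart in 3 members, with EPHA1 at 105 CPM, EPHB4 at 209 CPM and EFNB2 at 206 CPM. In HCT15, EPHB2 in LRC replicate 1 was at 51.1 CPM, EPHB3 in non-LRC replicate 2 at 20.1 CPM and EFNB1 in non-LRC replicate 4 at 17.0 CPM. EFNA4 in SW48 LRC replicate 2 was at 9.08 CPM and EFNB1 in HT55 non-LRC replicate 1 at 137 CPM.

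The LRC effect differed between lines, in a test of the interaction, for EPHB3 (adjusted p = 0.000109), EPHA4 (adjusted p = 0.00282) and EFNA1 (adjusted p = 0.0393 from edgeR).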

How the results depend on the processing

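Of 19 changes of a member that were called, 0 turned their sign under any alternative run, and of 92 that were not called 22 did. Among the latter, EFNA4 in RKO (0.014) was at -0.12 without LRC replicate 1 and at -0.0018 without a filter on low counts. Across lines, EPHB4 (-0.028) was at 0.0011 without SW48 and at 0.0016 without HCT15, EPHA4 at -0.049 without SW48 and EPHB3 at -0.026 without RKO. Over the alternatives that left out a single replicate, the number of members called ranged from 1 to 2 across lines (2 with all samples), 1 to 3 for the difference between lines (3), 0 to 1 in HT55 (0), 0 to 3 in SW948 (0), 1 to 2 in DLD1 (2), 1 to 3 for the day effect in unlabeled cells (3), 1 to 4 for CFSE on day 1 (3), 0 to 1 for CFSE on day 6 (1) and 0 to 1 for the dye by day interaction (0). Without a filter on low counts the number was 1 across lines, 1 in HT55, 1 in SW948, 1 in DLD1 and 2 for CFSE on day 6. Leaving out line DLD1 gave 1 across lines. Requiring 10 counts in every sample left 1 for the difference between lines. Fitting all 48 sorted samples together gave 1 in HT55 and 0 in DLD1, and library size without TMM gave 1 in DLD1. Fitting only the samples of a contrast gave 1 for the day effect in unlabeled cells, 1 for CFSE on day 1 and 2 for CFSE on day 6, and DESeq2 gave 2 for CFSE on day 6. The share of all genes called is not given here for most of these runs, so the counts describe the settings rather than the members. The cause was not tested.

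With the replicate block the number of members called was 3 across lines (EPHA2 and EFNB2 in, EFNB1 out), 7 for the difference between lines, 1 in SW948 (EPHA2, adjusted p = 0.0327 from edgeR), 3 in RKO (without EPHB4), 4 in DLD1 and 2 in HCT15. In SW948 and RKO the samples share only a number, and the share of all genes called with the block in RKO is not given here. In the controls the block changed no call of a member. For the levels between lines, no paired analysis was possible because replicates of different lines share only a number.

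Over all genes, the block called 501 in SW948 (0 without it), 1279 in SW48 (105), 4591 in DLD1 (1978), 2987 in HCT15 (137) and 5584 for the difference between lines (2380). DESeq2 called 37 in HT55, 244 in SW948, 361 in SW48, 531 in HCT15, 1521 for CFSE on day 6 (745) and 623 for the interaction of dye and day (145). Each library held at most 9 reads of EPHA1 in RKO and of EPHA4 in SW948, RKO and HCT15, too few for the test. Without a filter on low counts edgeR gave adjusted p = 0.0481 for EPHA4 in RKO, 0.0517 for EPHA4 in SW948, 0.992 for EPHA4 in HCT15 and 0.585 for EPHA1 in RKO.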
